A study of Rattus norvegicus with 12 samples.

Results

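The 5 genes described here encode isoforms of actin, the protein of thin filaments and of the cytoskeleton, in the left heart ventricle of rats. Every probe set whose annotation gave 1 gene symbol, and that symbol was Acta1, Actc1, Acta2, Actg2 or Actb, was taken. This gave 7 of the 7006 probe sets with 1 gene symbol, and 5 of 4736 genes. Acta2 had 3 probe sets and each of the other genes had 1. RNA came from 6 exercised samples, from animals that had run on a treadmill for 7 weeks, and from 6 sedentary samples. One single-channel array was hybridised per sample. The labels give no strain, sex or age, do not give the running schedule or the time between the last run and sampling, and do not tie each numbered sample to an animal of its own, and the p-values therefore rest on the scatter among the samples, some of which may be technical. Arrays are called by group and label number. Running is the single stated difference between the groups.

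Actins are among the most alike of all protein families, and the isoforms differ mainly in where they are made. Actc1 encodes cardiac alpha actin, the main thin filament actin of the adult heart, and Acta1 encodes skeletal alpha actin, which the heart makes beside it early in life. In rodents under pressure overload the return of Acta1 RNA is a known part of the fetal gene program. Acta2 and Actg2 encode the smooth muscle actins of vessels and of the gut, and Acta2 also marks myofibroblasts. Actb encodes beta actin of the cytoskeleton of nearly all cells and is often used as a loading control. In whole ventricle, more cells of a type and more RNA per cell cannot be told apart.

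The muscle actin genes are textbook targets of serum response factor, which binds the CArG box, a run of A or T between CC and GG. The promoter windows of Acta1 and Actc1, the pair set against each other below, and of Acta2 are shown from 250 bases before to 50 bases after the start in RefSeq (build GRCr8), 5′ to 3′ along the gene. Capitals mark each exact CArG box and each 10-letter stretch that is 1 letter away from it.
Acta1, chr19:68784145-68784444, minus strand: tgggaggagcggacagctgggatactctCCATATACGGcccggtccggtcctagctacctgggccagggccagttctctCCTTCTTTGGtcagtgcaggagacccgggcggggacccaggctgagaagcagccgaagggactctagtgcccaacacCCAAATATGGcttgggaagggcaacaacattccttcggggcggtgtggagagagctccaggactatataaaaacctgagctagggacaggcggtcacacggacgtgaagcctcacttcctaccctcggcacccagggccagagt
Actc1, chr3:121271778-121272077, minus strand: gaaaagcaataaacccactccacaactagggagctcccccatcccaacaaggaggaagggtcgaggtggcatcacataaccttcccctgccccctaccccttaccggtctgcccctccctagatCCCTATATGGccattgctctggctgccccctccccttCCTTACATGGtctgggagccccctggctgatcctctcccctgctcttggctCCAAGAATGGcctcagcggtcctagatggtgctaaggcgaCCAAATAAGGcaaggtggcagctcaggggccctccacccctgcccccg
Acta2, chr1:241172454-241172753, minus strand: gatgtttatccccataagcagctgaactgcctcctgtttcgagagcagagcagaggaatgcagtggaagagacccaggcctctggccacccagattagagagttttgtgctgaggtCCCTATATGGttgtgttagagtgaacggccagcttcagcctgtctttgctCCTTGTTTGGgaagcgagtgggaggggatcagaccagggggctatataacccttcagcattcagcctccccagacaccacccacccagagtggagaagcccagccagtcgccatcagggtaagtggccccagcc

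Acta1 held 1 exact box, CCAAATATGG, whose first base lies 94 bases before the start, and 2 stretches that were 1 letter away. Actc1 held 1 exact box, CCAAATAAGG, beginning 2 bases past the start in the table, and 3 such stretches. Acta2 held no exact box and 2 such stretches, CCCTATATGG and CCTTGTTTGG. Actg2 held neither in its window, whose start lies inside the span that RefSeq gives the gene. An exact box was found in 1.64% of 27457 RefSeq promoter windows of the same length and a stretch 1 letter away in 19.9%. The window of Acta1 also held TATAAA, present in 14.3% of windows. Acta1 and Acta2 each held CATTCC, present in 13.9%, and TATATAA, present in 3.9%. Both strands were searched, and a match describes letters, not binding. Of the 5 genes, 4 had a window, and Actb had none.

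The arrays lay on a common scale, with median intensities of 840 to 875. Exercised 4 and 5 stood apart in haemoglobin RNA, with Hbb intensities of 15784 and 8786 against 28362 to 37794 on the other 10 arrays. Sedentary 16 stood apart in the atrial light chain Myl7. The markers of heart muscle cells were present, with 13 of 13 genes on the array kept for testing and a summed intensity of 414929 to 445305 on exercised and 403787 to 442152 on sedentary arrays. A log2 difference is the exercised minus the sedentary mean of log2(intensity + 363), where 363 is the 20th percentile of all values, and it understates differences of dim probe sets. Intensities of different probe sets are not on a common scale of abundance, so they are compared between arrays and not between genes.

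Skeletal alpha actin had the widest difference of the family and the widest spread. Acta1 (J00692_at) had a lowest intensity of 6279, a median of 12299 and a highest of 19463 on exercised arrays, against 5223, 6337 and 9653 on sedentary arrays. Exercised 4, 5, 7 and 9 lay above every sedentary array, while exercised 1 and 8 lay within the sedentary range. The mean was 12572 ± 5314 in exercised and 7027 ± 1778 in sedentary samples (SD, n = 6 each), a ratio of means of 1.79. The log2 difference was 0.73 ± 0.25 (SE, 95% interval 0.20 to 1.26). It did not pass the test over all probe sets (limma adjusted p = 0.169), and the adjusted p lay between 0.0695 and 0.473 over 23 alternative settings. Taken on its own, the Acta1 difference had an exact two-sided permutation p of 0.0368, and adjusted over all probe sets that test gave 0.251. No probe set went below 0.104 in that adjusted test.

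The 2 highest Acta1 values were on exercised 5 and exercised 4, the arrays low in Hbb. Without both arrays, a setting chosen after seeing the data, the log2 difference was 0.40 (limma adjusted p = 0.473). All 4 tested erythroid markers were lower by sign in exercised samples, with a summed intensity of 14063 to 39815 on exercised and 38787 to 44140 on sedentary arrays. Fibroblast markers summed to 60747 to 90271 on exercised and 49150 to 65281 on sedentary arrays, with the 2 highest sums on exercised 4 and exercised 5, at 90271 and 75384. Macrophage markers also had their 2 highest sums on these arrays, at 26183 and 23429, while without Lyz2 exercised 4 and 5 ranked 9 and 4 of the 12 arrays, at 17106 and 17430. Of 14 tested fibroblast markers, 11 were higher and 3 lower by sign, and none passed over all probe sets. The part of red cells, fibroblasts and macrophages in the Acta1 values was not tested.

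Cardiac alpha actin was close to level between the groups. Actc1 (rc_AA866452_s_at, of a type whose probes can match related transcripts) had a lowest intensity of 50982, a median of 54927 and a highest of 56282 on exercised arrays, against 49783, 52391 and 57562 on sedentary arrays. The highest and the lowest value were both sedentary, so the exercised range lay inside the sedentary one. The mean was 54502 ± 1920 in exercised and 52917 ± 2718 in sedentary samples (SD, n = 6 each), and the log2 difference was 0.04 ± 0.039 (SE, limma adjusted p = 0.588). The 95% interval was -0.04 to 0.13. Actc1 was among the brightest probe sets, at percentile 99.98 of all means, and the highest intensity on each array lay between 64883 and 64994, so a larger difference could be compressed near that ceiling.

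**Figure D1:**
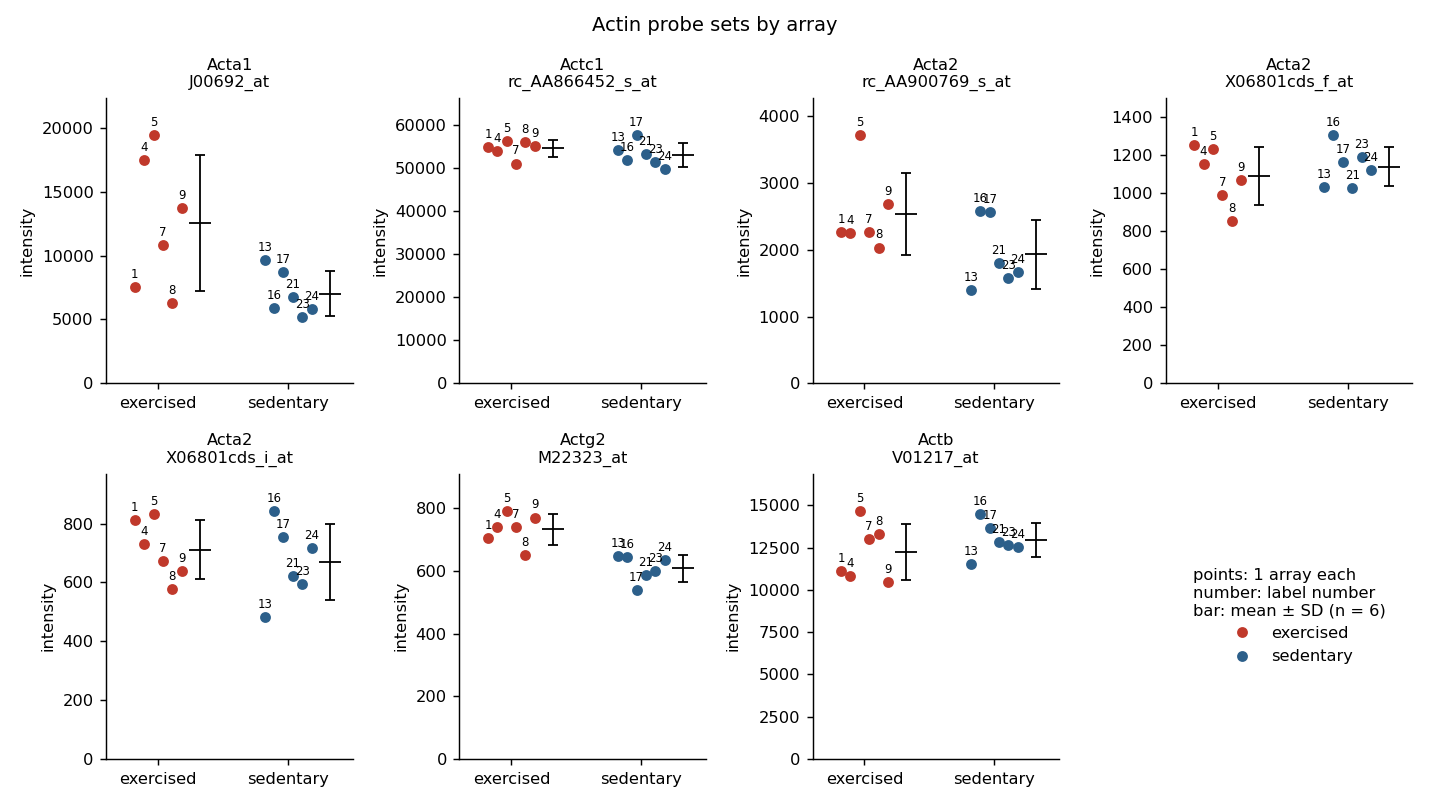
Intensity (y axis, linear, from 0) of each of the 7 actin probe sets on the 6 exercised and 6 sedentary arrays. Points are single arrays with their label number, and the bar is the mean ± SD. Exercised 4, 5, 7 and 9 stand above all sedentary arrays for Acta1, and all 6 exercised arrays do so for Actg2.

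The intensity of Acta1 as a percentage of that of Actc1 was taken on each array, with no pseudocount. It was 13.8% on exercised 1, 32.5% on exercised 4, 34.6% on exercised 5, 21.3% on exercised 7, 11.2% on exercised 8 and 24.9% on exercised 9. On the sedentary arrays it was 17.8% on sedentary 13, 11.5% on sedentary 16, 15.2% on sedentary 17, 12.7% on sedentary 21, 10.2% on sedentary 23 and 11.8% on sedentary 24. The ranges overlapped, with 4 of 6 exercised arrays above the highest sedentary one and exercised 1 and 8 among the sedentary values. These percentages compare probe sets, not molecules, the Actc1 set may also read related actins, and only their differences between arrays are read.

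The ratio averaged 23.1 ± 9.54% in exercised and 13.2 ± 2.83% in sedentary samples (SD, n = 6 each). On the log2 scale the exercised ratio was higher by 0.71 ± 0.29 (SE), or 1.64-fold, with a two-sided exact permutation p of 0.0411 over all splits of the arrays into 6 and 6. This was the only pair of an Acta1 and an Actc1 probe set, so no further adjustment applied, and the pair was picked with earlier results of these data known. With Actc1 close to level between the groups and near the intensity ceiling, the ratio largely restates the Acta1 difference of 0.73. The call on the ratio was not stable to single arrays. With 1 array left out it was lost in 8 of 12 cases (exact p of 0.0649 to 0.0801), namely without exercised 4, 5, 7 or 9 or sedentary 16, 21, 23 or 24, and it held in the other 4 (exact p of 0.0108 to 0.0498). It was also lost under quantile normalization (0.66, exact p = 0.0649) and without exercised 4 and 5 together (0.39, exact p = 0.176).

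A pair of probe sets annotated to both Acta2 and Actc1 served as other denominators, chosen after seeing the data. Over X80130cds_f_at the log2 ratio differed by 0.72 ± 0.30 (SE, exact permutation p = 0.0368), and over rc_AI104567_g_at by 0.81 ± 0.32 (exact permutation p = 0.0325). With each of them exercised 4, 5, 7 and 9 again lay above all sedentary arrays. All 3 ratios share the Acta1 values, so they are not independent of each other or of the Acta1 difference itself.

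**Figure D2:**
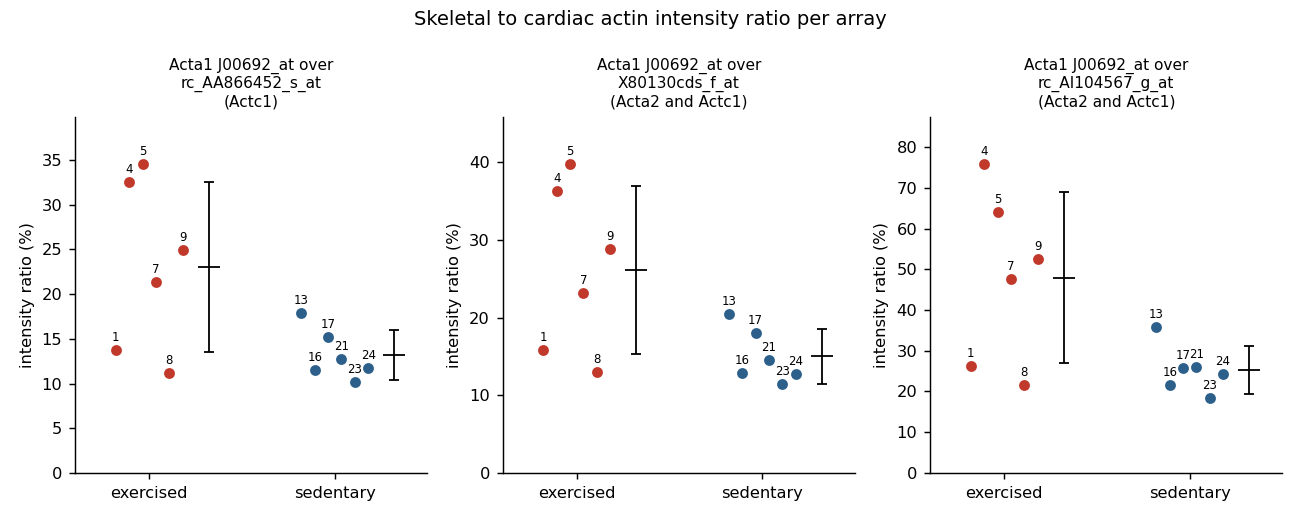
Intensity of Acta1 as a percentage (y axis, from 0) of that of Actc1 and of 2 probe sets annotated to Acta2 and Actc1, on the 6 exercised and 6 sedentary arrays. Points are single arrays with their label number and bars are mean ± SD. Over Actc1 the exercised arrays run from 11.2 to 34.6% and the sedentary arrays from 10.2 to 17.8%.

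The 3 probe sets of Acta2, vascular smooth muscle actin, did not give 1 answer. The brightest, rc_AA900769_s_at, had a lowest intensity of 2035, a median of 2266 and a highest of 3720 on exercised arrays, against 1392, 1739 and 2580 on sedentary arrays. Exercised 5 and 9 lay above every sedentary array, sedentary 13, 21, 23 and 24 lay below every exercised one, and sedentary 16 and 17 were high. Its log2 difference was 0.34 ± 0.15 (SE, 95% interval 0.03 to 0.66, limma adjusted p = 0.263), with adjusted p from 0.155 to 0.502 over 23 alternatives. Without sedentary 16 the difference was 0.42, and without exercised 5 it was 0.24.

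The other Acta2 probe sets were closer to level. X06801cds_f_at averaged 1091 ± 152 in exercised and 1139 ± 105 in sedentary samples, a log2 difference of -0.05 ± 0.069 (SE, n = 6 each, limma adjusted p = 0.722). X06801cds_i_at averaged 711 ± 101 in exercised and 669 ± 128 in sedentary samples, a difference of 0.06 ± 0.082 (limma adjusted p = 0.721). Both had overlapping groups, and their 95% intervals reached 0.10 and 0.24. On arrays of this kind the suffixes _f_at and _s_at mark probe sets whose probes can match related transcripts, so how far each set reads Acta2 alone is uncertain.

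Enteric smooth muscle actin was the single member whose groups did not overlap. Actg2 (M22323_at) had a lowest intensity of 652, a median of 740 and a highest of 792 on exercised arrays, against 538, 617 and 648 on sedentary arrays. Every exercised array lay above every sedentary one, though exercised 8 and sedentary 13 were almost level, at 652 and 648. The mean was 733 ± 49.8 in exercised and 609 ± 42.8 in sedentary samples (SD, n = 6 each), a ratio of means of 1.20. The log2 difference was 0.17 ± 0.040 (SE, 95% interval 0.09 to 0.26, limma unadjusted p = 0.000697), which ranked 61 among 6555 tested probe sets. It did not pass over all of them (limma adjusted p = 0.0729). The adjusted p lay between 0.0299 and 0.244 over 22 alternatives and was under 0.05 in 1 of them, the fit with array weights. The exact two-sided permutation p was 0.00216, the smallest that 6 against 6 arrays can give. Adjusted over all probe sets it was 0.104. Since it belongs to the smallest possible p, this was the lowest adjusted value of any probe set, and none passed in that test. Actg2 was dim, above 40.7% of probe sets by mean, and no detection calls were given.

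Beta actin did not stand apart. Actb (V01217_at) had a lowest intensity of 10487, a median of 12058 and a highest of 14668 on exercised arrays, against 11523, 12721 and 14503 on sedentary arrays. Exercised 1, 4 and 9 lay below every sedentary array and exercised 5 above every one. Its log2 difference was -0.09 ± 0.083 (SE, 95% interval -0.26 to 0.09, limma adjusted p = 0.618), and the p over 23 alternatives ran from 0.401 to 0.816.

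None of the 7 actin probe sets passed a limma adjusted p of 0.05, where 0.32% of all 6555 tested probe sets did. All 7 were kept by the filter on dim probe sets. At an unadjusted p under 0.05 there were 3 of 7, those of Acta1 and Actg2 and the brightest of Acta2, all higher in exercised samples, against 9.26% of all tested probe sets higher. Groups that did not overlap were found for 1 of 7, Actg2, against 1.5% of all tested with the exercised group higher. By sign, 5 were higher and 2 lower, and the median log2 difference was 0.06, beside 0.00 over all tested probe sets. With 7 probe sets of 5 genes these shares are descriptions.

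**Figure D3:**
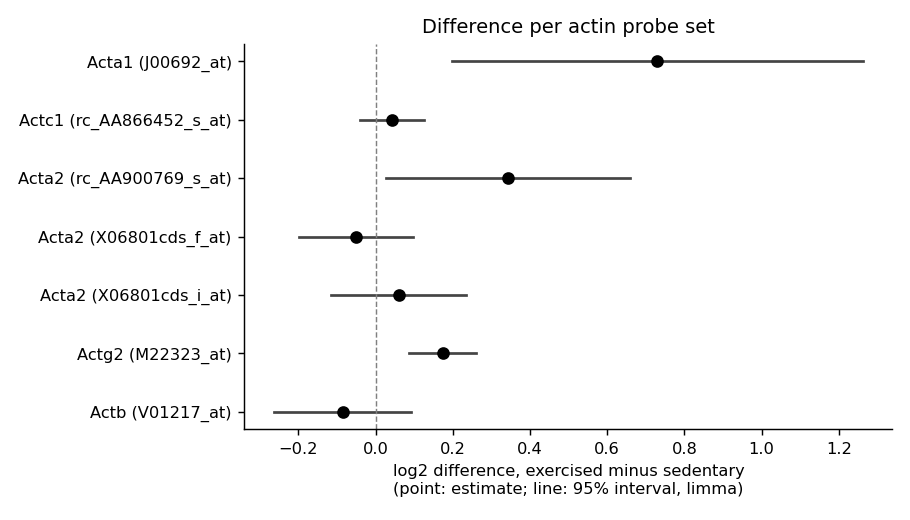
Log2 difference, exercised minus sedentary (x axis), of each actin probe set, with its 95% interval from limma. The intervals of Acta1, Actg2 and the brightest Acta2 probe set lie above 0, before any adjustment for the number of probe sets, and the other 4 include 0.

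The isoforms differed widely in how much they varied between arrays of 1 group. The pooled within-group SD of Acta1 was 0.51 on the log2 scale, larger than that of 99.8% of tested probe sets, whose median was 0.099. In exercised samples it was 0.63 and in sedentary samples 0.33. The brightest Acta2 probe set had a pooled SD of 0.30, larger than 98.6% of tested probe sets. Actc1 and Actg2 varied little, with pooled SDs of 0.063 and 0.065, larger than 16.1% and 18.2%. The small difference of Actg2 therefore stood further outside its own spread than the much larger one of Acta1.

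With group means removed, no pair of isoforms varied together past a threshold of 0.05 after adjustment. Each of the 10 pairs of genes was compared over the 12 arrays on its brightest probe set, with values permuted within groups. The pair with the smallest p was Acta2 and Actb (Pearson r = 0.594, permutation p = 0.0397, adjusted 0.397; Spearman rho = 0.392, permutation p = 0.214, adjusted 0.687). Without exercised 5 and sedentary 16, the arrays farthest out in Acta2, r was 0.153. By group r was 0.413 in exercised and 0.943 in sedentary samples. Acta1 and Actg2 had r = 0.504 (permutation p = 0.115, adjusted 0.499; rho = 0.573, permutation p = 0.0749, adjusted 0.687), and r = 0.0962 without exercised 5 and 8. By group r was 0.898 in exercised and -0.203 in sedentary samples. Acta1 and Actc1 had r = 0.308 (permutation p = 0.311, adjusted 0.518; rho = 0.357, permutation p = 0.275, adjusted 0.687), with r = 0.457 without exercised 5 and 8. By group r was 0.0047 in exercised and 0.803 in sedentary samples.

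The 3 genes most like each isoform were found by Pearson r with group means removed, over the 12 arrays and 3875 other genes. Since they are the highest of so many, they carry no p, and all genes share the arrays. The genes most like Acta2 were Tagln, the smooth muscle protein transgelin (r = 0.895, rho = 0.839), Tpm2, beta tropomyosin (r = 0.887, rho = 0.748), and Myl9, a regulatory light chain of smooth muscle and non-muscle myosin (r = 0.800, rho = 0.552). Without the 2 arrays farthest out in Acta2 these r were 0.818, 0.729 and 0.653. Tagln ran from 785 to 1081 on exercised and from 698 to 983 on sedentary arrays, and Tpm2 from 572 to 919 on exercised and from 441 to 701 on sedentary arrays. Within the groups, exercised 5 and sedentary 16 and 17 were the arrays highest in Acta2, and all 3 were above their group mean in Tagln, Tpm2 and Myl9. None of these 3 genes differed between the groups past the threshold (limma adjusted p of 0.490, 0.141 and 0.855).

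**Figure D4:**
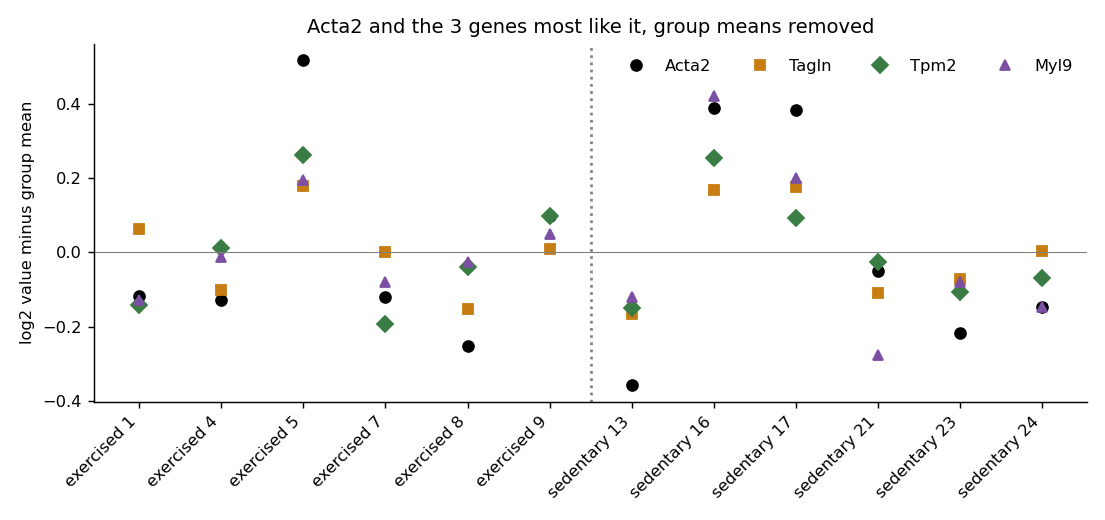
Log2 value minus group mean (y axis) of Acta2 (rc_AA900769_s_at) and the 3 genes most like it, on each of the 12 arrays (x axis, exercised left of the dotted line, sedentary right). All 4 genes are above their group mean on exercised 5 and on sedentary 16 and 17.

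The genes most like Actg2 were Srpx (r = 0.885, rho = 0.874), Bicd2 (r = 0.837, rho = 0.713) and Csrp3, the muscle LIM protein (r = 0.832, rho = 0.902). Of these Csrp3 rose in exercised samples (log2 difference 0.58, limma adjusted p = 0.0302), while Srpx gave 0.20 (0.133) and Bicd2 -0.03 (0.886). Without the 2 arrays farthest out in Actg2 the r of Bicd2 was 0.436 and those of Srpx and Csrp3 were 0.765 and 0.753. The genes most like Acta1 were Scn8a, a sodium channel, RT1-DMb, of antigen presentation, and Oprm1, the mu opioid receptor (r of 0.817, 0.782 and 0.776, rho of 0.832, 0.811 and 0.713), with group differences of -0.02, 0.02 and 0.03. Those most like Actc1 were Spink1l, Serpind1, heparin cofactor II, and Taf1c, of the RNA polymerase I machinery (r of 0.930, 0.925 and 0.921, rho of 0.923, 0.923 and 0.895), and those most like Actb were Fbln5, an elastic fibre protein, Scamp2, a membrane carrier protein, and Plscr3, a scramblase family member (r of 0.801, 0.786 and 0.773, rho of 0.853, 0.790 and 0.839). Without the 2 arrays farthest out in the isoform, r was 0.714, 0.822 and 0.593 for the Acta1 genes. It was 0.871, 0.873 and 0.811 for the Actc1 genes and 0.822, 0.705 and 0.814 for the Actb genes. Actc1 varied little and lay near the intensity ceiling, which limits the reading of its r. None of these 9 genes passed the threshold between groups.

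The other genes that work on actin filaments gave no calls in either list. Of 24 tested genes of actin assembly and turnover none passed in either direction, while by sign 17 were higher and 7 lower. Their median difference was 0.05 on the log2 scale, beside 0.00 over the 3876 genes tested. At an unadjusted p under 0.05, 5 of the 24 were higher and none lower, beside 357 higher and 268 lower of the 3876. The smallest p belonged to Arpc1b, a subunit of the Arp2/3 complex that starts branched filaments (0.32 ± 0.084, limma adjusted p = 0.0922, and 0.12 on another probe set), Cap2, which takes part in recycling actin monomers (0.19 ± 0.062, 0.156), and Twf1, a monomer-binding protein (0.11 ± 0.042, 0.204, and -0.09 on another probe set). Of 27 tested crosslinking and anchoring genes none passed, while by sign 18 were higher and 9 lower, and their median was 0.05. At an unadjusted p under 0.05, 9 of them were higher and 2 lower, beside 9.26% higher and 6.91% lower among all tested probe sets. Among these were Ezr, ezrin, which ties actin to the membrane (0.19 ± 0.048, limma adjusted p = 0.0910), the Z-disc protein Pdlim3 (0.26 ± 0.078, 0.123) and Synpo, synaptopodin (-0.13 ± 0.040, 0.146). Both lists were chosen with earlier results known, so these counts are descriptions.

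Thin filament partners were not called either. Of 7 tested tropomyosin and troponin genes, by sign 6 were higher and 1 was lower, and the median was 0.06. Tpm2 averaged 711 ± 126 in exercised and 533 ± 96.8 in sedentary samples, a difference of 0.26 ± 0.081 (SE, n = 6 each, limma adjusted p = 0.141). Tpm3 gave 0.08 ± 0.073 (0.609), and 0.08 and 0.02 on other probe sets. Tpm1 gave -0.03 ± 0.031 (0.633), and -0.03, 0.09 and -0.13 on other probe sets.

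Of 14 tested regulators of muscle actin genes, 2 rose and none fell, beside 14 that rose (0.361%) and 2 that fell (0.0516%) among all 3876 genes tested. At an unadjusted p under 0.05, 3 of the 14 were higher and none lower, beside 357 higher and 268 lower of the 3876. The list was chosen with earlier results known, so these counts are descriptions, and both genes that rose are Csrp genes. It named 33 genes, of which 15 were on the array. Serum response factor itself was not among the 14 tested. Csrp2 and Csrp3 are LIM proteins of smooth and striated muscle that can act with serum response factor. Csrp2 averaged 946 ± 88.4 in exercised and 655 ± 79.2 in sedentary samples, a log2 difference of 0.36 ± 0.056 (SE, n = 6 each, limma adjusted p = 0.0192). Csrp3 averaged 17787 ± 2996 in exercised and 11745 ± 1304 in sedentary samples, a difference of 0.58 ± 0.10 (limma adjusted p = 0.0302). With 1 array left out Csrp2 passed in 9 of 12 fits (adjusted p of 0.00757 to 0.0651) and was lost without exercised 5 or sedentary 23 or 24. Csrp3 passed in 4 of 12 (0.0137 to 0.0866) and was lost without exercised 4, 5, 7 or 9 or sedentary 16, 21, 23 or 24. Csrp3 was also lost under quantile normalization (0.51, limma adjusted p = 0.0683), and over 23 alternatives it passed in 12, with adjusted p of 0.0137 to 0.113. Those alternatives include the exact permutation test, in which no probe set passed. Without exercised 4 and 5 together Csrp2 gave 0.34 and Csrp3 0.46, neither passing (limma adjusted p = 0.113 for both). The related Csrp1 gave 0.17 ± 0.048 (0.107). The list had a median of 0.02, with 8 higher and 6 lower by sign.

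Markers of the cells that make these isoforms were set beside them. Of 17 skeletal muscle markers on the array, 13 were kept by the filter, none passed, and their summed intensity was 17150 to 17576 on exercised and 16881 to 17816 on sedentary arrays. Among them, fast troponin T, Tnnt3, averaged 1035 ± 53.0 in exercised and 1006 ± 131 in sedentary samples, and fast troponin C, Tnnc2, was below the filter at 190 ± 12.6 in exercised and 190 ± 8.25 in sedentary samples. The exercised range of the sum lay inside the sedentary one. Of 5 tested smooth muscle markers all were higher by sign and none passed, with a median of 0.10 and summed intensities of 22249 to 27615 on exercised and 20203 to 23724 on sedentary arrays. Des, which heart muscle also makes, gave 66.3% of the mean sum in exercised and 64.0% in sedentary samples. Without it, a sum taken after seeing the data like those without Lyz2, the range was 7915 to 9097 on exercised and 7179 to 8852 on sedentary arrays. The part of smooth muscle cells in the Actg2 and Acta2 values was not tested. Among the markers Des gave 0.21 ± 0.092 (limma adjusted p = 0.264), Kcnmb1 0.10 ± 0.057 (0.413), Tagln 0.10 ± 0.069 (0.490), Myl9 0.04 ± 0.10 (0.855) and Myh11, smooth muscle myosin heavy chain, 0.04 ± 0.065 (0.764).

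Of the other marker lists, also chosen with earlier results known, the 13 for heart muscle cells had a median of 0.02. Csrp3 was the one that rose, beside the 0.361% of all genes tested that did. The 8 for macrophages had a median of -0.03, of which Lyz2, lysozyme, was the one that rose (log2 difference 0.997 ± 0.18, limma adjusted p = 0.0404). Their summed intensity was 20309 to 26183 on exercised and 19211 to 20961 on sedentary arrays. The higher exercised sums came with Lyz2, at 5421 ± 2104 in exercised and 2401 ± 297 in sedentary samples (SD, n = 6 each), and without it the other 7 summed to 16781 to 17430 on exercised and 16951 to 18610 on sedentary arrays. By sign 3 of the 8 were higher and 5 lower. Lyz2 passed in 4 of 12 fits with 1 array left out (adjusted p of 0.0137 to 0.104) and was lost without exercised 5, 7 or 9 or sedentary 16, 17, 21, 23 or 24. It was also lost without exercised 4 and 5 together (0.75, limma adjusted p = 0.113). The 6 for endothelium had a median of -0.03, the 6 for atrium one of -0.16 and the 4 for red cells one of -0.36, with none past the threshold. The 14 for fibroblasts had a median of 0.16, and those with the smallest p were Mgp (0.41 ± 0.11, limma adjusted p = 0.101), Col5a2 (0.22 ± 0.080, 0.192) and Pdgfra (0.28 ± 0.11, 0.226, and -0.07 on another probe set). Of the remaining genes of smallest p in these lists, Pln gave 0.08 and Ckm -0.07 for heart muscle, C1qb 0.37 and Aif1 -0.20 for macrophages, and Cav1 0.21, Vwf -0.14 and Flt1 -0.13 for endothelium. For atrium Pam gave 0.21, Kcna5 -0.23 and Myl4 -0.29, for red cells Alas2 -0.28, Hba-a3 -0.43 and Hbb -0.58, and for skeletal muscle Atp2a1 -0.09, Cacna1s -0.09 and Myh1 -0.13. All of these are log2 differences, with limma adjusted p between 0.0910 for C1qb and 0.592 for Myh1. Over 23 alternatives Hbb ran from -0.69 to -0.12, Hba-a3 from -0.52 to -0.17 and Myl4 from -0.34 to -0.14. Sedentary 16 had the highest summed intensity of the atrial markers, at 54932.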

How the data were processed

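RNA of 12 left ventricle samples was measured on single-channel arrays. The authors deposited 1 linear intensity for each probe set and array, with software, background correction, scaling and detection calls not given in the sources used here. Groups came from the sample titles. The scale was kept, since the 2% trimmed means differed by a factor of at most 1.05. Values were taken as log2(intensity + 363), and 6555 of 8740 probe sets with a mean above the 25th percentile of means (434) were fitted with limma 3.58.1 (R 4.3.3), eBayes with a mean-variance trend, two-sided, with Benjamini-Hochberg adjustment over all 6555. Ratios and single values had exact permutation tests, and correlations had 100000 permutations within groups. For lists and likeness the brightest probe set stood for a gene. The code was tested on simulated data.

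Gene names are those of the platform annotation, under which 7006 probe sets named 1 gene, 308 several and 1426 none. All 7 actin probe sets matched RefSeq by Entrez ID with the same symbol, and RefSeq (GRCr8) gave the promoter sequences. The members and lists were chosen with earlier results of these data known. Named genes were all members, per list each gene past the threshold and the 3 of smallest p, and per isoform the 3 most like it; Tnnt3, Tnnc2, Hbb, Myl7, Myh11 and Myl9 as a marker were added after their values were seen. Alternatives were other pseudocounts, filters, scalings, eBayes settings, array weights, a threshold of 0.10 and leaving out each array.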

Additional observations from a re-analysis of the deposited data

How the results depend on the processing

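No paired analysis was possible because the label numbers are not shared between groups. The number of all probe sets passing, 21 in the fit reported, was 32 with no filter, 50 with a mean above the 50th percentile, 42 with eBayes without trend, 160 with array weights, 144 at a threshold of 0.10 and 3 to 37 with 1 array left out. The number of actin probe sets passing, 0 in the fit reported, was 1 with array weights and 1 at a threshold of 0.10, in both cases Actg2 (0.16 with array weights, adjusted p = 0.0299), and 0 with any 1 array left out. The difference in the log2 ratio of Acta1 to Actc1 was 0.57 to 0.90 with 1 array left out, 0.66 with quantile normalization and 0.39 without exercised 4 and 5. Under quantile normalization the correlation with Actc1 turned to -0.229 for Acta1, -0.276 for Acta2 and -0.0242 for Actb, none past the threshold before or after. In that setting Actc1 took the same log2 value, 15.74, on exercised 1, 4 and 5 and sedentary 13, 17 and 21. The part of such ties in these correlations was not tested. Of the 47 other named genes refitted under the same alternatives, an addition made after seeing the data, 5 with differences near 0 changed sign in some fit. With 1 array left out Bicd2 ran from -0.070 to 0.041, RT1-DMb from -0.0022 to 0.053, Spink1l from -0.023 to 0.10, Taf1c from -0.092 to 0.0084 and Myl9 from -0.014 to 0.13. Without exercised 4 and 5, RT1-DMb gave -0.013 and Myl9 -0.0043. No actin probe set changed the sign of its difference under the alternatives run. With a mean above the 50th percentile, Actg2 and X06801cds_i_at were too dim to be tested. Brightness near the ceiling limits Actc1 and dimness limits Actg2. Dixon's test marked a deviating array in none of the 16 groups tested (7 probe sets and the ratio, in 2 groups each).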

Other observations

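A further 6 probe sets were annotated to several actin genes and stand for none. Of the 4 annotated to Acta2 and Actc1, X80130cds_i_at lay at the top of the scale in both groups (64981 to 64994 on exercised and 64883 to 64986 on sedentary arrays), and rc_AI104567_at was below the filter (256 ± 14.2 in exercised and 220 ± 23.4 in sedentary samples, SD, n = 6 each). X80130cds_f_at gave a log2 difference of 0.04 ± 0.028 (SE, limma adjusted p = 0.507) and rc_AI104567_g_at -0.06 ± 0.088 (0.763). The 2 annotated to Actb with Actg1 and Actg1l1 gave 0.05 ± 0.064 on rc_AI070848_f_at (0.723) and 0.08 ± 0.090 on rc_AI179012_s_at (0.685).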
